A study of Monodelphis domestica with 27 samples.

Results

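Anterior subcutaneous fat from a marsupial, the gray short-tailed opossum (Monodelphis domestica), was compared between 6 and 10 weeks of age. The libraries were chosen by their titles and labels alone: 5 libraries of this depot at 6 weeks and 4 at 10 weeks, 9 of the 27 libraries in the series. The other 18 came from inguinal fat (10) and interscapular fat (8). Per the labels, the 6-week group held 2 females and 3 males and the 10-week group 3 females and 1 male, with no treatment named, and each library came from its own animal. All animals were bred in the laboratory and housed at 26°C with food and water freely given. The column names of the count files carry 45 with a d for the 6-week libraries and 70, 71, 71 and 77 for 10-week replicates 1 to 4, read here as days. The animals of the older group may thus differ in exact age.

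Subcutaneous white fat stores triglyceride in adipocytes and also holds adipocyte precursors, fibroblasts, vessels, nerves and immune cells. In young mammals such a depot grows by new adipocytes and by lipid loading of existing ones, and in several species it can hold thermogenic (beige) adipocytes. Marsupials are born very immature, and much of this growth takes place after birth. A library of whole tissue averages over all these cells. In such bulk samples, fewer cells of a type and less RNA per cell cannot be told apart.

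The files give genes as Ensembl identifiers and do not pair them with names. No row among the 32665 of the RefSeq gene table used here lists an Ensembl identifier, so 0 identifiers were matched. No gene can therefore be given a function here, the labelled tissue was not checked against its marker genes, and the 26 gene lists drawn up by symbol, markers of muscle, epithelium, blood and immune cells among them, were not tested. At most 2 genes in each direction are given by identifier, and the others are described in groups. Values are deposited read counts scaled to CPM, which sets every library to a common effective size so that a gene's levels can be compared between libraries. A gene was called where the quasi-likelihood F test of edgeR gave a Benjamini-Hochberg adjusted p under 0.05 over all genes tested.

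The 9 libraries held between 10465826 and 14335793 counts, with the highest total in 6-week replicate 1. Totals averaged 11740000 ± 1500000 (SD, n = 5) at 6 weeks and 11670000 ± 497000 (SD, n = 4) at 10 weeks (exact permutation test, two-sided p = 0.968, adjusted p = 0.968 over 3 measures). Thinned to 10000000 counts, the libraries showed 18940 ± 121 genes (SD, n = 5) at 6 weeks and 18750 ± 139 (SD, n = 4) at 10 weeks (exact permutation test, two-sided p = 0.0714, adjusted p = 0.214). The 50 most abundant genes took 17.01% ± 1.48 of the counts (SD, n = 5) at 6 weeks and 16.3% ± 1.41 (SD, n = 4) at 10 weeks (exact permutation test, two-sided p = 0.468, adjusted p = 0.702). With 5 against 4 libraries the smallest p such a test can give is 0.00794.

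Age and library position did not fully coincide. In a principal component analysis of log2 CPM, 43.8% of the variance among the 9 libraries fell on the first component. On it, 6-week replicates 2, 3, 4 and 5 lay at -49.24, -46.01, -46.00 and -13.00, and 10-week replicates 1, 2 and 4 lay at 52.85, 36.82 and 60.57. The remaining libraries lay on the side of the other age: 6-week replicate 1, from male 1849, at 13.98, and 10-week replicate 3, from male 1743, at -9.97. Correlations across genes between libraries, taken from the same log2 CPM, describe this position again and are no separate evidence. On average over the libraries of an age, these 2 libraries correlated better with the other age than with their own. The values were 0.9565 against 0.9512 for 6-week replicate 1 and 0.9561 against 0.9465 for 10-week replicate 3. The remaining 7 libraries correlated better with their own age. Replicate 3 is the only male at 10 weeks, and replicate 1 is the deepest library at 6 weeks, and the part of sex or depth in their position was not tested. Every inguinal library correlated better with its own age. The values were 0.9322 against 0.8987 for animal 1849 and 0.9345 against 0.8800 for animal 1743. The own-age values of these animals were the lowest of their ages in inguinal fat.

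**Figure D1:**
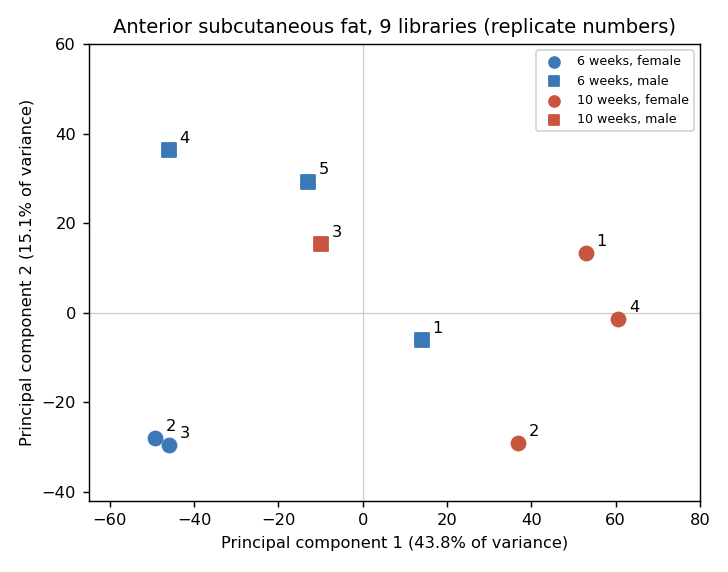
Positions of the 9 anterior libraries on the first 2 principal components of log2 CPM (43.8% and 15.1% of the variance), coloured by age, shaped by sex and marked with replicate numbers. Replicate 1 at 6 weeks (13.98 on the first component) and replicate 3 at 10 weeks (-9.97) lie on the side of the other age.

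Between 6 and 10 weeks 49 genes were called in anterior subcutaneous fat, 0.331% of 14785 tested. Of these, 19 rose (0.129% of those tested) and 30 fell (0.203%). The genes that fell had the larger fitted changes: their median log2 fold change was -1.50, with a range from -4.57 to -0.80, against a median of 1.05 and a range from 0.57 to 4.10 for those that rose. The change was at least 4-fold in 12 of the 30 genes that fell and in 3 of the 19 that rose. The standard error of the log2 fold change had a median of 0.22 among the genes that fell and 0.15 among those that rose, against 0.20 over all genes tested.

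ENSMODG00000001014 fell 10.6-fold, the largest change among the 4 genes given by identifier. At 6 weeks it stood at 53.4, 75.9, 56.3, 64.2 and 74.3 CPM in replicates 1 to 5, and at 10 weeks at 5.88, 3.75, 10.6 and 4.24 CPM in replicates 1 to 4. Every 6-week library stood at 53.4 CPM or more and no 10-week library exceeded 10.6 CPM, so the ages were far apart. Means were 64.8 ± 10.2 CPM (SD, n = 5) and 6.13 ± 3.14 CPM (SD, n = 4). The fitted log2 fold change was -3.40 (SE 0.30, 95% interval -4.07 to -2.73, edgeR adjusted p = 0.00223). The highest 10-week value was that of replicate 3, backed by 128 reads, while the other 10-week libraries held 47 to 69 reads.

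ENSMODG00000012713 fell 5.75-fold. Its values were 26.3, 18.2, 19.1, 15.9 and 21.5 CPM in 6-week replicates 1 to 5 and 2.98, 3.51, 4.82 and 2.68 CPM in 10-week replicates 1 to 4. The ages did not overlap, and replicate 3 again had the highest value at 10 weeks. The 6-week mean was 20.2 ± 3.97 CPM (SD, n = 5) and the 10-week mean 3.50 ± 0.943 CPM (SD, n = 4), for a log2 fold change of -2.52 (SE 0.22, 95% interval -3.02 to -2.03, edgeR adjusted p = 0.00223).

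ENSMODG00000012485 rose 3.61-fold and had the smallest p of all genes tested. It stood at 16, 11.5, 14.4, 16.1 and 15.7 CPM in 6-week replicates 1 to 5 and at 46.2, 52.9, 47.9 and 65.8 CPM in 10-week replicates 1 to 4. The 6-week libraries ran from 11.5 to 16.1 CPM, and every 10-week library was above 46 CPM. The means were 14.7 ± 1.90 CPM (SD, n = 5) and 53.2 ± 8.86 CPM (SD, n = 4). This was a fitted log2 fold change of 1.85 (SE 0.15, 95% interval 1.53 to 2.18, edgeR adjusted p = 0.00193).

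ENSMODG00000012209 rose 2.31-fold. It was measured at 11.3, 11.4, 12.1, 9.03 and 8.03 CPM in the 6-week replicates and at 20.6, 26.1, 27.8 and 21.4 CPM in the 10-week ones. The lowest 10-week value, 20.6 CPM, lay above the highest 6-week value, 12.1 CPM. The means were 10.4 ± 1.76 CPM (SD, n = 5) and 24.0 ± 3.52 CPM (SD, n = 4). The fitted log2 fold change was 1.21 (SE 0.16, edgeR adjusted p = 0.044).

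These 4 genes had the smallest unadjusted p in their direction, and they differed in how far the call held. ENSMODG00000012485, ENSMODG00000012713 and ENSMODG00000001014 were called in all 9 fits without 1 library, and no other gene of the 49 was. ENSMODG00000012209 was called in 2 of those fits, with adjusted p from 0.0281 to 0.118. Of the 49 genes, 42 were called in 2 of the 9 fits and 4 in 3. Adjusted p values were tied at 0.04401 for 38 of the 49 genes. The last gene inside the threshold had an adjusted p of 0.0469 and the first outside 0.05016, so most of the list lay close to it.

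**Figure D2:**
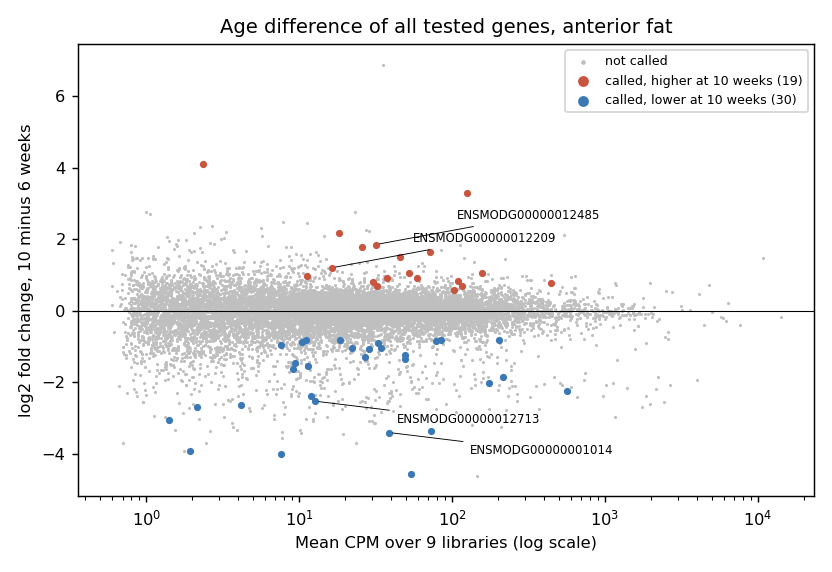
Log2 fold change (10 minus 6 weeks) against mean CPM (log scale) for the 14785 genes tested; red points are the 19 genes called higher and blue points the 30 called lower at 10 weeks, grey points were not called. At or below -2 on the log2 scale lie 199 genes, and at or above 2 lie 21.

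The called genes were not the rarest ones. None of the 310 tested genes with a mean under 1 CPM was called by edgeR, though 43 of them had an unadjusted p under 0.05. Calls made up 0.204% of 4413 genes from 1 to under 10 CPM, 0.377% of 7950 genes from 10 to under 100 CPM and 0.473% of 2112 genes at 100 CPM or more. Among genes from 1 to under 10 CPM, 1 rose and 8 fell, and at 100 CPM or more 6 rose and 4 fell. Mean levels ran from 2.34 to 443 CPM among genes that rose and from 1.42 to 565 CPM among those that fell. The standard error narrowed with abundance, from a median of 0.494 under 1 CPM to 0.329, 0.159 and 0.141 in the successive classes.

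In each library the genes that rose and those that fell were also summed. The 19 genes that rose summed to between 950 and 1033 CPM in the 6-week libraries and between 1933 and 2235 CPM in the 10-week libraries. The 30 genes that fell summed to between 2014 and 3459 CPM at 6 weeks and between 685 and 1066 CPM at 10 weeks. The sums of the genes that fell thus varied more among 6-week libraries than those of the genes that rose. In both sums the 10-week library nearest to the 6-week group was replicate 3. These genes were called on these libraries, so the sums describe them and support nothing further.

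In all 49 called genes the CPM ranges of the ages did not overlap. The same held for 556 of the 14785 tested genes in the upward direction (3.76%) and 494 in the downward direction (3.34%). Together these were 1050 genes, 7.1% of those tested, and most of them missed the threshold. In 26 of the 49 called genes (53.1%), 10-week replicate 3 was the 10-week library nearest to the 6-week group, and over all tested genes it was so in 41.4%. For 6-week replicate 1 the shares were 32.7% and 36.2%.

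**Figure D3:**
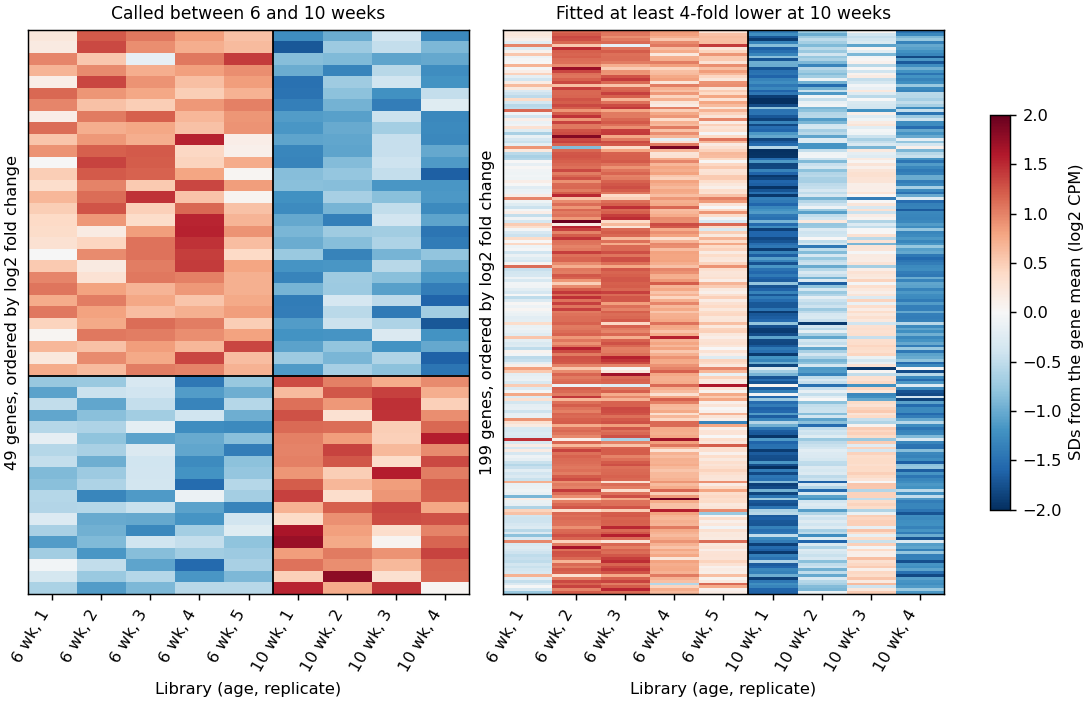
Level of each gene (rows, SDs from the gene's mean of log2 CPM) in the 9 libraries (columns) for the 49 called genes (left, 30 that fell above the line and 19 that rose below it) and the 199 genes fitted at least 4-fold lower at 10 weeks (right). In 171 of the 199 genes 6-week replicate 1 had the lowest 6-week value, and in 171 10-week replicate 3 had the highest 10-week value. In many rows of the right panel 10-week replicate 3 lies above 6-week replicate 1.

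Over all tested genes, the called ones included, fitted changes were small for most genes and leaned downward among large ones. The middle 50% of log2 fold changes lay between -0.23 and 0.21, with a median of 0.01. The 95% interval of the fold change lay within 2-fold in both directions for 10247 genes, 69.3% of those tested, and within 4-fold for 93.7%. At least 4-fold changes were fitted for 199 genes lower and 21 genes higher at 10 weeks, and at least 2-fold changes for 703 and 232. Without adjustment, 2882 genes (19.5% of those tested) had a p under 0.05. Of these, 1279 were higher and 1603 lower at 10 weeks. Among them the balance turned with size: below an absolute log2 change of 0.5, 637 were higher and 382 lower, and at 2 or above, 18 were higher and 186 lower.

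The 199 genes fitted at least 4-fold lower tended to go up and down together within each age. Of these genes 12 were called, and the ages did not overlap in 47 (23.6%). Over all tested genes 0.203% were called lower, and 3.34% were lower at 10 weeks without overlap. Their median level was 6.08, 37.6, 34.6, 20.6 and 13.5 CPM in 6-week replicates 1 to 5 and 0.846, 3.14, 8.38 and 1.42 CPM in 10-week replicates 1 to 4. The median of replicate 3 at 10 weeks thus lay above that of replicate 1 at 6 weeks. Together they summed to between 11853 and 74271 CPM at 6 weeks and between 1588 and 21298 CPM at 10 weeks. In 171 of the 199 genes 6-week replicate 1 had the lowest 6-week value (85.9%), and 10-week replicate 3 had the highest 10-week value in 171 as well (85.9%). Over all tested genes these libraries were the nearest of their age to the other age in 36.2% and 41.4%. After each age's mean was subtracted, the mean correlation between pairs of these genes over the 9 libraries was 0.663. It was 0.170 among the 30 called genes that fell, 0.057 among the 19 that rose and 0.001 over all tested genes. A call favours genes with little spread within an age: the median SE was 0.22 and 0.15 in the called sets and 0.82 among the 199. The sets were thus picked in unlike ways, and the contrast between them supports nothing further. The genes were picked by their fitted fold, and which cells or tissue they mark was not tested, since they carry no names.

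The called genes were put on the same scale, shared with the inguinal libraries. The median level of the 30 that fell was between 23.8 and 33.7 CPM in the 6-week libraries and between 6.23 and 11 CPM in the 10-week ones. That of the 19 called genes that rose was between 20.3 and 30.8 CPM at 6 weeks and between 51.5 and 71.5 CPM at 10 weeks. Here 6-week replicate 1, at 24.3 CPM for the genes that fell, lay among the other 6-week libraries. These genes were called for a difference between the ages on these anterior libraries, so that position follows from how they were picked.

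The count of called genes depended on which libraries and which test entered. Without 10-week replicate 3 there were 390 called genes, 111 higher and 279 lower. These held all 49, and 366 of them had an unadjusted p under 0.05 with all 9 libraries. Without 6-week replicate 1 there were 155, 43 higher and 112 lower. Leaving out any other library gave 3 to 6 called genes. The number was 4 when 6-week replicate 2, 3 or 4 was left out, 3 for 6-week replicate 5 and for 10-week replicates 1 and 2, and 6 for 10-week replicate 4. With all 9 libraries, DESeq2 called 1133 genes (7.66%), the 49 among them. The fold changes of the 49 genes moved little in these fits. Their median stayed between 0.95 and 1.11 for the genes that rose and between -1.59 and -1.38 for those that fell. Wherever they were tested they kept their sign and an unadjusted p under 0.05. The 49 genes were called on these same libraries, with ages that did not overlap, so the kept sign and p add no support.

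**Figure D4:**
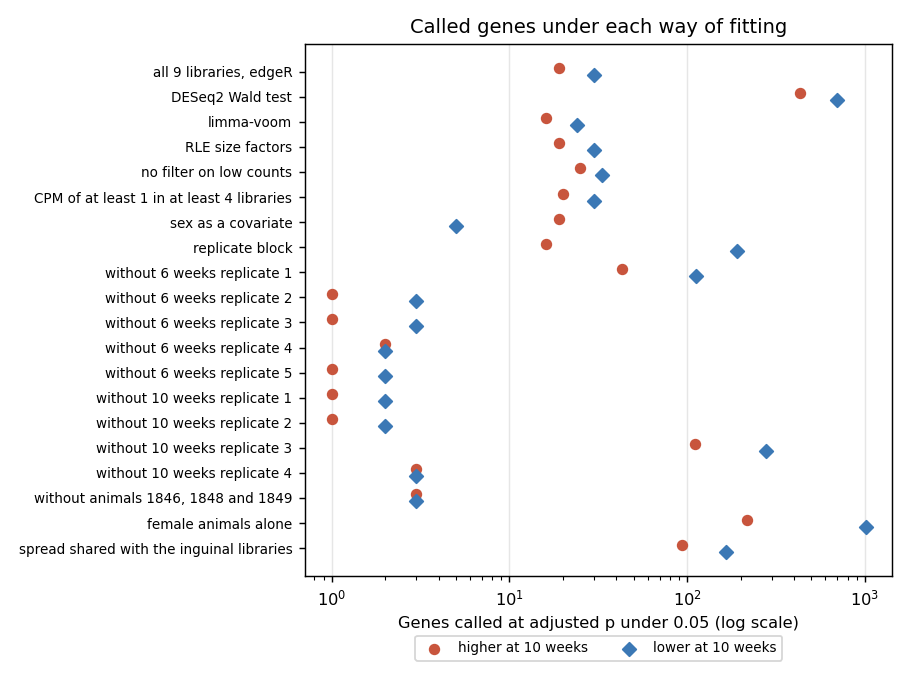
Number of genes called higher (circles) and lower (diamonds) at 10 weeks at an adjusted p under 0.05, on a log axis, with all 9 libraries and under each alternative. Totals range from 3 genes (without 6-week replicate 5, 10-week replicate 1 or 10-week replicate 2) to 1230 genes with female animals alone.

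Sex was unevenly spread over the ages and was examined in the same fit. With sex as a covariate 24 genes were called, 19 higher and 5 lower at 10 weeks. Of the 19 genes that rose without the covariate 6 were called again, and of the 30 that fell 5 were. The sizes barely moved: the median log2 fold change of those 30 genes was -1.52 with the covariate and -1.50 without, with a median SE of 0.23 against 0.22. The sex term itself called 7 genes, 0.0473% of those tested, 4 higher in males and 3 higher in females. Female animals alone, 2 at 6 weeks and 3 at 10 weeks, gave 1230 called genes, 218 higher and 1012 lower. That set leaves out both male libraries that lay on the side of the other age, so sex and library position cannot be told apart in it. There ENSMODG00000012485 had a log2 fold change of 2.05, ENSMODG00000012209 of 0.91, ENSMODG00000012713 of -2.63, and ENSMODG00000001014 of -3.87.

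The other depots gave the same genes their own age comparisons, fitted on their own libraries but largely on the same animals. In inguinal fat 2212 of 13925 genes were called between the ages (15.9%). Of the 49 genes called in anterior fat 47 were tested there, of which 11 were called higher and 21 lower there, each as in anterior fat, and 0 against it. Their inguinal median log2 fold change was 0.93 for the 18 genes that rose in anterior fat and -1.86 for the 29 that fell. In interscapular fat 9 of 13093 genes were called (0.0687%), and 1 gene that rose and 3 that fell were among them. The median there was 0.77 and -1.49.

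ENSMODG00000001014 fell in all 3 depots. In inguinal fat its lowest and highest values were 35.5 and 58.8 CPM at 6 weeks and 3.19 and 6.16 CPM at 10 weeks, and in interscapular fat 53.7 and 71.6 CPM against 3.84 and 10.9 CPM. The log2 fold change was -3.16 (SE 0.20, edgeR adjusted p = 3.74e-05) in inguinal and -3 (SE 0.29, edgeR adjusted p = 0.016) in interscapular fat. ENSMODG00000012713 fell in all 3 depots too, with a log2 fold change of -3.30 in inguinal fat (SE 0.53, edgeR adjusted p = 0.00255) and -3.08 (SE 0.27, edgeR adjusted p = 0.016) in interscapular fat. Its 10-week values ran from 0.398 to 3.70 CPM in inguinal, 2.68 to 4.82 CPM in anterior and 2.34 to 5.63 CPM in interscapular fat. The depots thus overlapped. Each depot was scaled on its own, and the lowest inguinal value rested on 5 reads.

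ENSMODG00000012485 rose in inguinal fat, from 13 ± 4.29 to 79.3 ± 47.2 CPM (SD, n = 5 each; log2 fold change 2.61, SE 0.37, edgeR adjusted p = 0.0014). The inguinal 10-week value of animal 1846 was 159 CPM, and the other inguinal 10-week values lay between 40.9 and 83.6 CPM. In the anterior libraries the highest 10-week value, 65.8 CPM, was also that of animal 1846. In interscapular fat the gene stood at 24.8 ± 11.2 and 130 ± 42.8 CPM (SD, n = 4 each), with ages that did not overlap and an edgeR adjusted p of 0.057. ENSMODG00000012209 rose in inguinal fat, from 6.72 ± 2.61 to 21.9 ± 8.4 CPM (SD, n = 5 each; log2 fold change 1.71, SE 0.33, edgeR adjusted p = 0.00633). In interscapular fat it held 4 to 8 reads per 6-week library and 11 to 28 per 10-week library and was not tested.

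**Figure D5:**
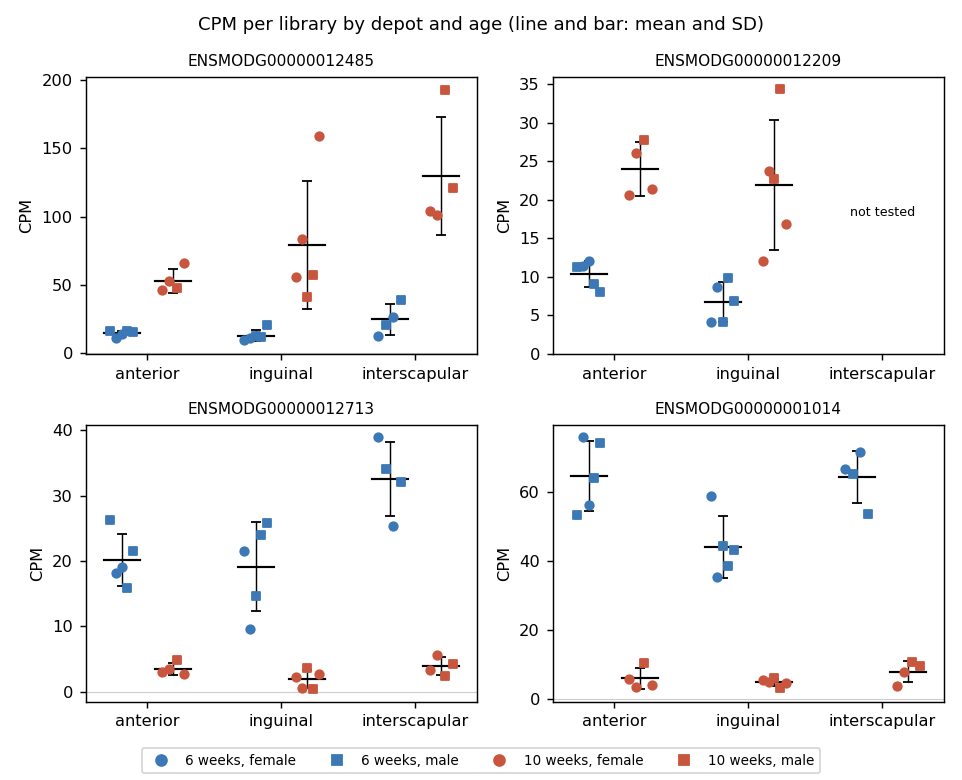
CPM of the 4 genes in each library by depot and age (points, shaped by sex), with the mean (line) and SD (bar); each depot was scaled on its own. In anterior fat the ages do not overlap for any of the 4, and ENSMODG00000001014 lies at or below 10.9 CPM in every 10-week library of the 3 depots.

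Whether the age difference of anterior fat differed from that of inguinal fat was tested within the 9 animals that gave both depots. For none of the 4 genes did the difference pass the threshold in edgeR. The anterior minus inguinal difference in log2 fold change was -0.75 for ENSMODG00000012485 (95% interval -1.35 to -0.14, edgeR adjusted p = 0.121) and -0.34 for ENSMODG00000012209 (-1.04 to 0.36, edgeR adjusted p = 0.537). It was 0.50 for ENSMODG00000012713 (-0.45 to 1.45, edgeR adjusted p = 0.50) and -0.49 for ENSMODG00000001014 (-0.99 to 0.01, edgeR adjusted p = 0.199). Without 10-week replicate 3 it passed for ENSMODG00000012485 (-0.98, edgeR adjusted p = 0.0316) and ENSMODG00000001014 (-0.74, edgeR adjusted p = 0.0371). Over all genes 604 of 15304 differed (3.95%), and 9 of the 49 genes called in anterior fat were among them, 4 with the larger change in anterior fat. That count rested on single libraries. Of the 49 genes, 9 were called without 6-week replicate 2, where 1715 of all 15258 genes tested were called. Without 10-week replicate 3 it was 19 of the 49, and 1541 of all 15511. When any other anterior library was left out, 0 or 1 of the 49 was called, and 1 to 13 of all genes tested.

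The 199 genes fitted at least 4-fold lower in anterior fat were also measured in the inguinal libraries. Their median level there was 21.3, 21.0, 18.6, 13.5 and 4.82 CPM in 6-week replicates 1 to 5 and 6.24, 8.47, 0.098, 0.442 and 3.01 CPM in 10-week replicates 1 to 5. The lowest 6-week value in both depots was that of animal 1849 (6.08 CPM in anterior and 4.82 CPM in inguinal fat). Animal 1743 had the highest 10-week value in anterior fat, 8.38 CPM, and the lowest in inguinal fat, 0.098 CPM. Of the 179 genes tested in inguinal fat 37 (20.7%) were called lower and 0 higher at 10 weeks there, against 8.29% called lower and 7.59% called higher of all 13925 genes tested in that depot. Their median inguinal log2 fold change was -1.94. Of the 21 genes fitted at least 4-fold higher in anterior fat, 12 were tested in inguinal fat and 10 were called higher there. Those 12 had a median inguinal log2 fold change of 2.36. A gene that rises can pass the filter on its 10-week libraries alone, so these values support nothing further. Over all 21 genes the inguinal median level was 0.669, 1.55, 0.587, 1.47 and 2.06 CPM in 6-week replicates 1 to 5. In 10-week replicates 1 to 5 it was 3.62, 3.02, 1.67, 1.06 and 1.08 CPM, so the ages overlapped.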

How the data were processed

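The authors deposited whole-number read counts per gene, not normalized, for 34985 Ensembl identifiers in each library, per the file headers and values. The submitters' processing notes name STAR and no further tool. Neither its version nor the build, annotation, counter or strandedness is given in the sources used here, so reads of near-identical or overlapping genes may have been split or dropped. The protocol text describes a paired-end preparation and a single-end one without tying them to libraries.

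The 9 anterior libraries were fitted in edgeR 4.0.16 (R 4.3.3; glmQLFit and glmQLFTest) with TMM factors and filterByExpr (minimum count 10, minimum total 15). The 14785 genes tested held 99.8% of their counts. Standard errors were taken from the fold change and F. The difference between depots was an interaction term with the animal as a block. Animal numbers in the labels pair the depots; deviations from the age means of the libraries of 1 animal correlated at 0.33 on average (-0.11 to 0.74, 9 animals). DESeq2 1.42.0 and limma 3.58.1 were alternatives. The 16 pairs of libraries within an age differed beyond sampling noise (chi-square per degree of freedom 11.84 or more). The scripts were tested on simulated counts.

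Where identifiers have no names, the rule for named genes took, per direction, the 2 called genes of smallest p among those with a mean of at least 1 CPM. The lists and rules were chosen with earlier results of these data known.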

Additional observations from a re-analysis of the deposited data

Results flagged for a closer look

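The total of 14335793 counts in 6-week replicate 1 lay apart from the other 6-week libraries, with a gap of 0.73 of the group's range, above the critical value of 0.71 for 5 samples. It was the only 1 of 16 sets of values so tested that did, and about 1 in 20 such sets does so without cause.

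The age difference of anterior fat differed from that of inguinal fat in 604 genes (edgeR interaction term, adjusted p under 0.05), of which 321 had the higher fold change in anterior and 283 in inguinal fat. That split came from the fit with the animal as a block: without the block it was 91 and 3 of 94 genes.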

How the results depend on the processing

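The 49 calls changed by over 1.5 times in most refits, while the fold changes of the called genes did not change direction in any fit that tested them. The genes were called on these same libraries, so the kept direction adds no support. The count was 1133 by DESeq2, 24 with sex as a covariate, 6 without animals 1846, 1848 and 1849, whose numbers stand apart from the rest, 1230 with female animals alone, 259 with the spread shared with the inguinal libraries, and 471 at an adjusted p under 0.1. It ranged from 3 to 390 without 1 library. It was 40 by limma-voom, 49 with RLE factors, 58 without the filter and 50 with the stricter filter. The share of higher genes, 38.8% with all libraries, was 79.2% with sex as a covariate. With the replicate number of the titles as a block it was 206, of which 190 were lower. The numbers do not pair the animals: deviations of same-numbered libraries correlated from -0.306 to 0.264, and 2 of 8 libraries correlated best with their own number.

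ENSMODG00000012485 was called in 19 of 19 alternatives (log2 fold change 1.74 to 2.05), ENSMODG00000012713 and ENSMODG00000001014 in 18 each and ENSMODG00000012209 in 11, with no change of sign. All were picked by their p on these same libraries, so the kept sign adds no support.

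The 604 genes of the depot difference (321 higher in anterior fat, 283 lower) became 94 without the animal block (91 and 3), 4 with the replicate block in its place (4 and 0), and 0 without animals 1846, 1848 and 1849 by edgeR, where 1548 had an unadjusted p under 0.05. Without 1 anterior library the number ranged from 1 to 1715; it was 1715 without 6-week replicate 2 (977 and 738), and without 10-week replicate 3 the split was 677 and 864.

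Without 1 library the age difference in total counts ran from -392600 to 574900 and that in genes detected from -242.9 to -153.3. For genes detected the unadjusted exact permutation p ran from 0.0286 (without 6-week replicate 3, -236.8) to 0.161, against 0.0714 with all 9 libraries. The difference in the share of the 50 most abundant genes ran likewise from -1.292 to -0.1027 percentage points. For the top 10 genes that share turned to 0.3529 points. The causes were not tested. The median standard error was largest, at 0.494, for genes under 1 CPM, and the part of depth in it was not tested.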
